A study of Mus musculus with 4 samples.

Results

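Meg3, Snhg11, Peg3, Nnat, Nap1l5 and Cdkn1c are 6 of the 383 genes that were counted molecule by molecule, in place, in coronal sections of the mouse striatum. They were put together as imprinted genes and noncoding RNAs, and they were chosen by their measured level in each cell class and by their difference between 2 and 18 months in neurons and in glia of these same sections. Those levels and age differences are therefore given as a description, without a test. Tests were kept for measures that took no part in the choice, which were position along the dorsal-ventral axis, distance to the nearest neuron and the type of dopamine receptor of a spiny neuron.

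MERFISH, an imaging method that reads single RNA molecules with barcoded probes, was applied to 10 µm sections that hold both striata, 2 from Young mice of 2 months and 2 from Aged mice of 18 months. All were wild-type C57BL/6NTac mice per the study's methods, the labels name no treatment, and the sex of the animal behind a section is not given in the sources used here. After the study's own filter on cells, 68011 and 70774 cells were kept in Young replicates 1 and 2, and 68415 and 74624 in Aged replicates 1 and 2. The 4 sections shared 0 cell identifiers. Depth differed between sections, with medians of 400, 325, 215 and 293 transcripts per kept cell in that order, so Aged replicate 1 was the shallowest and both ages differ in depth. The labels number the sections within an age and do not tie them to animals. For age, p-values set the difference against the spread between these 4 sections. For contrasts within a section, they measure how far the difference between its parts varied over the 4 sections. The fits also borrow spread from other genes, so a very small p-value does not rest on the values of a single gene alone.

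Genomic imprinting silences the copy of a gene that came from one parent, and many imprinted genes of the brain act on growth, on energy balance or on neurons. Meg3 is a long noncoding RNA made from the maternal copy of the Dlk1-Dio3 locus. Peg3, a zinc finger protein, Nnat (neuronatin), a small membrane protein of the endoplasmic reticulum, and Nap1l5, a relative of nucleosome assembly proteins, are made from the paternal copy, while Cdkn1c, which encodes the cell cycle inhibitor p57, is made from the maternal copy. Snhg11 is a host gene of small nucleolar RNAs and is not known as an imprinted gene. The counts do not tell the parental copies apart, so imprinting itself was not measured.

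The annotation (GENCODE on GRCm38) places Meg3 at chr12:109541001-109571726 on the plus strand and Snhg11 at chr2:158375638-158386145 on the plus strand. Peg3 lies at chr7:6703892-6730431 and Cdkn1c at chr7:143458339-143461050, both on the minus strand. Nnat, at chr2:157560078-157562522 on the plus strand, lies in an intron of Blcap, which runs the other way and is itself in the panel. Nap1l5, at chr6:58905233-58907076 on the minus strand, lies in an intron of Herc3, which runs the other way and is not in the panel. GENCODE classes Meg3 as a long intergenic noncoding RNA and Snhg11 as protein coding, whereas RefSeq classes both as long noncoding RNAs. The 4 other genes are protein coding in both. The panel holds 3 further genes that GENCODE does not class as protein coding, Igkc, Gm16499 and Dlx6os1. The probes' target sequences were not used here, so which part of a gene was read is not known from the counts.

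RefSeq promoter windows (GRCm38.p6, the 250 bases before the annotated start) were matched for 5 of the 6 genes, all but Cdkn1c. The cAMP response element, TGACGTCA, which reads alike on both strands, occurred in the windows of 2 of these 5 genes, Meg3 and Peg3, and in 1.55% of all 32851 windows. Both are shown because the other shared features of the members are levels that the choice already used. Sequences run 5′ to 3′ toward the gene's start, and capitals mark the element.
Meg3, chr12:109540746-109540995, plus strand: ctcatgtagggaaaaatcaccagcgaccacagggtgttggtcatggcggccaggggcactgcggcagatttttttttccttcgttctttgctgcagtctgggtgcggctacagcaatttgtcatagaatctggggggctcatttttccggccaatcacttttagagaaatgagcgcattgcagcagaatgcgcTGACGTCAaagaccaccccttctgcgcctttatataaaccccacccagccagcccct
Peg3, chr7:6730420-6730669, minus strand: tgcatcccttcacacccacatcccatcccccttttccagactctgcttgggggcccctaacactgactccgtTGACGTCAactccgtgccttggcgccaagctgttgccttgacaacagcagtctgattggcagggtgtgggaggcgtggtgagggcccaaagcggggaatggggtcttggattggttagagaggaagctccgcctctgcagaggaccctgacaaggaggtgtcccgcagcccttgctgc
The element began 57 bases before the start in Meg3 and 178 bases before it in Peg3. Meg3 has a further RefSeq start, whose window at chr12:109545148-109545397 held no match. Letters of a TATA box (TATAAA, either strand) occurred in 12.4% of all windows and, among the members, in the Meg3 window shown and in that of Nap1l5. CCAAT letters, found in 33.8% of all windows on either strand, occurred in those of Meg3, Peg3 and Nap1l5. The windows of Meg3, Peg3, Nnat, Snhg11 and Nap1l5 held 10, 8, 12, 18 and 10 CG pairs, where the median over all windows was 6. A match of letters is a description and does not show that a factor binds there.

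Meg3 and Snhg11 were the most counted genes of the panel. Meg3 gave 5580428 transcripts in kept cells, which was 5.04% and 3.98% of all transcripts in Young replicates 1 and 2 and 5.93% and 4.87% in Aged replicates 1 and 2. Snhg11 gave 4478859, Nap1l5 1265776, Peg3 882985, Nnat 146121 and Cdkn1c 26856 transcripts, and their ranks by count were 2, 20, 32, 148 and 284 of 383. Counts of different genes rest on different probe sets, so no level is compared between genes below. A level is the number of transcripts of a gene per 10000 panel transcripts of a group of cells, summed over that group in a section.

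Cells were clustered without the 6 genes and named from markers, which gave 7 classes: medium spiny neuron-like, other neuron-like, astrocyte-like, oligodendrocyte-like, OPC-like (oligodendrocyte precursor), microglia-like and vascular-like cells. A cell was set aside as mixed when it showed 3 or more markers of its class together with 3 or more of a different one, with both neuronal classes taken as 1, since segmentation in dense tissue can assign transcripts to a touching cell. Mixed cells were 49.0% of kept cells on average and held between 62.7% and 72.6% of the transcripts of each of the 6 genes, as means over sections. For Meg3 they held 68.7% and 65.4% in Young replicates 1 and 2, and 54.5% and 64.1% in Aged replicates 1 and 2. The share was lowest in the shallowest section, and the rule counts detected markers, so it does not act alike at unlike depth. The levels below leave mixed cells out unless stated, and many glial levels are higher with mixed cells kept, as given beside the main contrasts.

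Meg3 and Snhg11 were neuronal in the sense that their levels in both neuronal classes stood above those of every glial class in all 4 sections. Meg3 was at 573 and 468 in spiny neuron-like cells of Young replicates 1 and 2 and at 746 and 596 in Aged replicates 1 and 2, and at 762, 541, 883 and 702 in other neuron-like cells. In oligodendrocyte-like cells it was at 19.2, 10.1, 36.9 and 22.0, in astrocyte-like cells at 41.9, 42.2, 30.9 and 27.8, and in microglia-like cells at 14.8, 7.94, 65.6 and 19.7. OPC-like cells stood between neurons and the other glia, at 266, 147, 320 and 290. At least 1 Meg3 transcript was seen in 87.2% to 91.5% of spiny neuron-like cells, which had medians of 241 to 405.5 transcripts, against 1.71% to 3.54% of oligodendrocyte-like cells, which had medians of 93 to 155.

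Snhg11 followed the same order of neurons over glia. It was at 419, 400, 569 and 414 in spiny neuron-like cells and at 621, 523, 736 and 603 in other neuron-like cells. In astrocyte-like cells it was at 4.89, 6.52, 13.5 and 11.7. With mixed cells kept, the glial levels were far higher, with Meg3 at a mean of 262 in place of 22.0 in oligodendrocyte-like cells and 222 in place of 27.0 in microglia-like cells, while spiny neuron-like cells went from 596 to 578. Snhg11 was then at a mean of 207 in place of 17.2 in oligodendrocyte-like cells, 182 in place of 16.3 in microglia-like cells and 45.2 in place of 9.17 in astrocyte-like cells. The low glial levels thus rest on the rule for mixed cells.

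Peg3 and Nap1l5 were also highest in neurons other than spiny neurons, with smaller contrasts. Peg3 was at 112, 94.6, 98.0 and 102 in other neuron-like cells, at 65.6, 61.5, 63.1 and 64.0 in spiny neuron-like cells and at 13.0, 10.3, 14.1 and 13.3 in oligodendrocyte-like cells. In OPC-like cells Peg3 was at 50.7, 45.7, 52.4 and 75.4, above spiny neuron-like cells in Aged replicate 2. Nap1l5 was at 162, 164, 119 and 167 in other neuron-like cells but at 46.2, 47.8, 40.9 and 50.3 in spiny neuron-like cells. OPC-like cells had Nap1l5 at 81.9, 90.9, 82.0 and 141, above spiny neuron-like cells in each section. In oligodendrocyte-like cells Nap1l5 was at 44.2, 41.1, 39.9 and 55.3, a range that overlapped that of the spiny neurons, so a split of neurons from glia does not describe Nap1l5. Keeping mixed cells, Nap1l5 in oligodendrocyte-like cells had a mean of 104 in place of 45.1, above spiny neuron-like cells (48.6) by 1.09 on the log2 scale in place of -0.05. Peg3 had a mean of 57.9 in place of 12.7 in oligodendrocyte-like cells, and its log2 ratio to spiny neuron-like cells went from -2.34 to -0.15.

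Nnat and Cdkn1c were not highest in the neuronal classes of these sections. The astrocyte-like level of Nnat includes an unnamed cluster rich in Nnat, which is described below. Nnat was at 59.8, 71.5, 58.9 and 65.2 in astrocyte-like cells and at 36.0, 30.4, 21.9 and 27.2 in vascular-like cells, against 11.4, 9.30, 11.4 and 10.9 in spiny neuron-like cells, and the 3 ranges did not overlap. The log2 ratio of Nnat to spiny neuron-like cells went, with mixed cells kept, from 2.57 to 1.86 in astrocyte-like and from 1.41 to 0.54 in vascular-like cells. Cdkn1c was rare, at 5.84, 6.21, 4.89 and 4.76 in vascular-like cells and at 1.97, 2.12, 2.25 and 1.92 in spiny neuron-like cells. Its means in astrocyte-like (1.17) and microglia-like cells (1.78) lay below those of spiny (2.06) and other neuron-like cells (2.36). The mean in OPC-like cells (3.99) lay above both neuronal classes, and that in oligodendrocyte-like cells (2.32) lay between them. At least 1 Cdkn1c transcript was seen in 5.71% to 8.42% of vascular-like cells and in 1.27% to 1.84% of astrocyte-like cells, at medians of 102 to 126 and 99 to 124 transcripts per cell.

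A finer clustering gave 10 named classes and resolved where each gene was highest. GABA neuron-like cells, named from Gad2, Slc32a1, Sst and Npy, had the highest mean level of Meg3 (982 ± 169, SD over 4 sections), Snhg11 (715 ± 125), Peg3 (160 ± 13.2) and Nap1l5 (306 ± 56.4). For Meg3 and Snhg11 the lowest, with mixed cells left out, were astrocyte-like cells, at 8.67 and 5.69. The mean in the highest class was 113 times that in the lowest for Meg3, 126 times for Snhg11, 15.5 times for Peg3 and 18.9 times for Nap1l5. With mixed cells kept, GABA neuron-like cells were still highest for these 4 genes, but astrocyte-like cells had means of 98.9 (Meg3) and 74.4 (Snhg11). The lowest were then fibroblast-like cells for Meg3, at 17.0 against 910 in GABA neuron-like cells, and mural-like cells for Snhg11, at 59.2 against 637, so the order at the low end and the size of these contrasts rest on the rule for mixed cells. Many neighbours in the orders without mixed cells did not differ beyond their spread: the section ranges of 6 of the 9 neighbouring pairs overlapped for Meg3, 7 for Snhg11, 6 for Peg3 and 6 for Nap1l5.

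Fibroblast-like cells, named from Mgp, Aldh1a2 and Mmp2, had the highest mean level of Nnat and of Cdkn1c. Nnat was there at 94.5 and 82.7 in the young and 56.9 and 67.2 in the aged sections, followed by OPC-like cells at a mean of 22.7 and astrocyte-like cells at 18.3. Cdkn1c was there at 8.14, 9.05, 7.80 and 7.61, followed by mural-like cells at a mean of 4.74. Of the 9 neighbouring pairs, 5 overlapped for Nnat and 8 for Cdkn1c, and the highest over the lowest mean was 23.4 and 10.6. The leading genes of this cluster also held Cd74, of antigen presentation, Lyz2, of macrophages, and Gfap, of astrocytes.

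**Figure D1:**
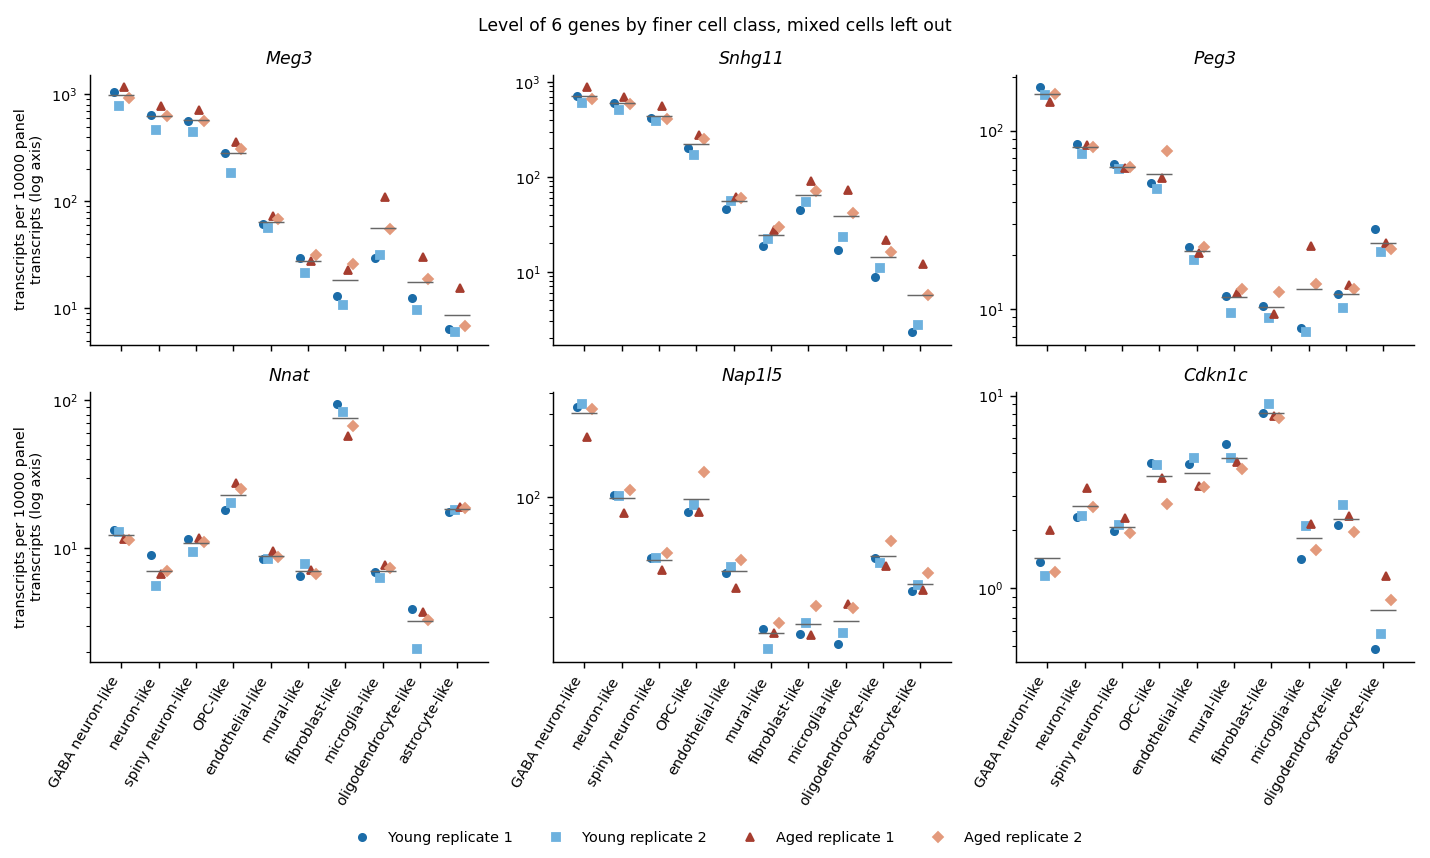
Level of each of the 6 genes (transcripts per 10000 panel transcripts, log axis) in the 10 finer cell classes, mixed cells left out. Each point is 1 section and each short line the mean of the 4 sections; Meg3 and Snhg11 are highest in the neuronal classes, and Nnat and Cdkn1c in fibroblast-like cells.

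The finer astrocyte-like cells held less Nnat than the astrocyte-like class of the coarser clustering. Left out of them was a cluster of 3015 cells that stayed unnamed because astrocyte and neuroblast markers were both raised in it, and whose leading genes were Top2a, a topoisomerase of dividing cells, Rassf9, Nnat, which the clustering had not used, Sox4, Thbs4 and Sox11. Sox4 and Sox11 are transcription factors of newly formed neurons. Nnat was there at 215, 232, 312 and 295, above every named class in each section, and Meg3 at 193, 168, 230 and 185. These are descriptions of 1 cluster.

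Genes whose level over the 10 finer classes was most like each member were found by Pearson correlation of log2 levels, as a description over 10 points from the same libraries. For Meg3 they were Eno2, a neuronal enolase (r = 0.976), Scg2, a secretory granule protein (0.975) and Elmod1 (0.975). For Snhg11 they were Meg3 (0.956), Nsg2 (0.929) and Cxcl10 (0.927), and for Peg3 Zcchc18 (0.981), Clstn3 (0.941) and Scg2 (0.935). Nap1l5 was most like C3 (0.949), Peg3 (0.904) and Ran (0.892). Nnat was most like Fabp7, a fatty acid binding protein of radial glia and astrocytes (0.852), Mdk (0.778) and Mgst1 (0.737), and Cdkn1c most like Fxyd5 (0.917), Cnn2 (0.841) and Paqr5 (0.799). With mixed cells kept the closest gene changed for Meg3 (Tenm2), Snhg11 (Gm16499) and Nap1l5 (Tubb3). It stayed Zcchc18 for Peg3, Fabp7 for Nnat and Fxyd5 for Cdkn1c. Meg3 and Cxcl10 were then not among the 3 closest to Snhg11, nor C3 among those of Nap1l5. Among the members and with mixed cells left out, Meg3, Snhg11, Peg3 and Nap1l5 correlated with each other at 0.689 to 0.956, whereas Nnat correlated with the other 5 at -0.091 to 0.324.

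Maps of the sections showed that the neuronal members differed by place. Peg3 and Nap1l5 were high in the tissue between both striata and low within the striatum. In neuron-like cells between the striata, spiny and other neurons together and mixed cells left out, Nap1l5 was at 274, 302, 191 and 318 in Young replicates 1 and 2 and Aged replicates 1 and 2, against 112, 128, 97.1 and 128 elsewhere outside the striatum and 56.0, 50.7, 45.5 and 53.6 within it. Peg3 was at 168, 183, 175 and 203 between the striata, against 92.4, 81.7, 84.8 and 87.2 elsewhere and 68.2, 60.3, 65.6 and 61.9 within the striatum. For both genes the ranges of the 3 places did not overlap.

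Meg3 had the same order of means, at 1112, 935, 1426 and 1091 between the striata against 675, 510, 814 and 692 elsewhere, and these ranges did not overlap. Within the striatum Meg3 was at 577, 443, 756 and 530, which overlapped the range elsewhere. Snhg11 differed less, at 637, 541, 827 and 617 between the striata and 570, 502, 715 and 572 elsewhere, with overlapping ranges. Nnat in these neurons was at 17.4, 20.9, 14.1 and 15.2 between the striata and 8.90, 7.15, 8.28 and 9.07 elsewhere, while Cdkn1c was at 1.53, 1.60, 1.29 and 0.896 between the striata and 2.34, 2.21, 2.95 and 2.35 elsewhere. These places were drawn after the maps had been seen, and no test was made. GABA neuron-like cells were 62.6% to 75.4% of the neuron-like cells between the striata and 17.0% to 24.6% elsewhere outside the striatum.

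**Figure D2:**
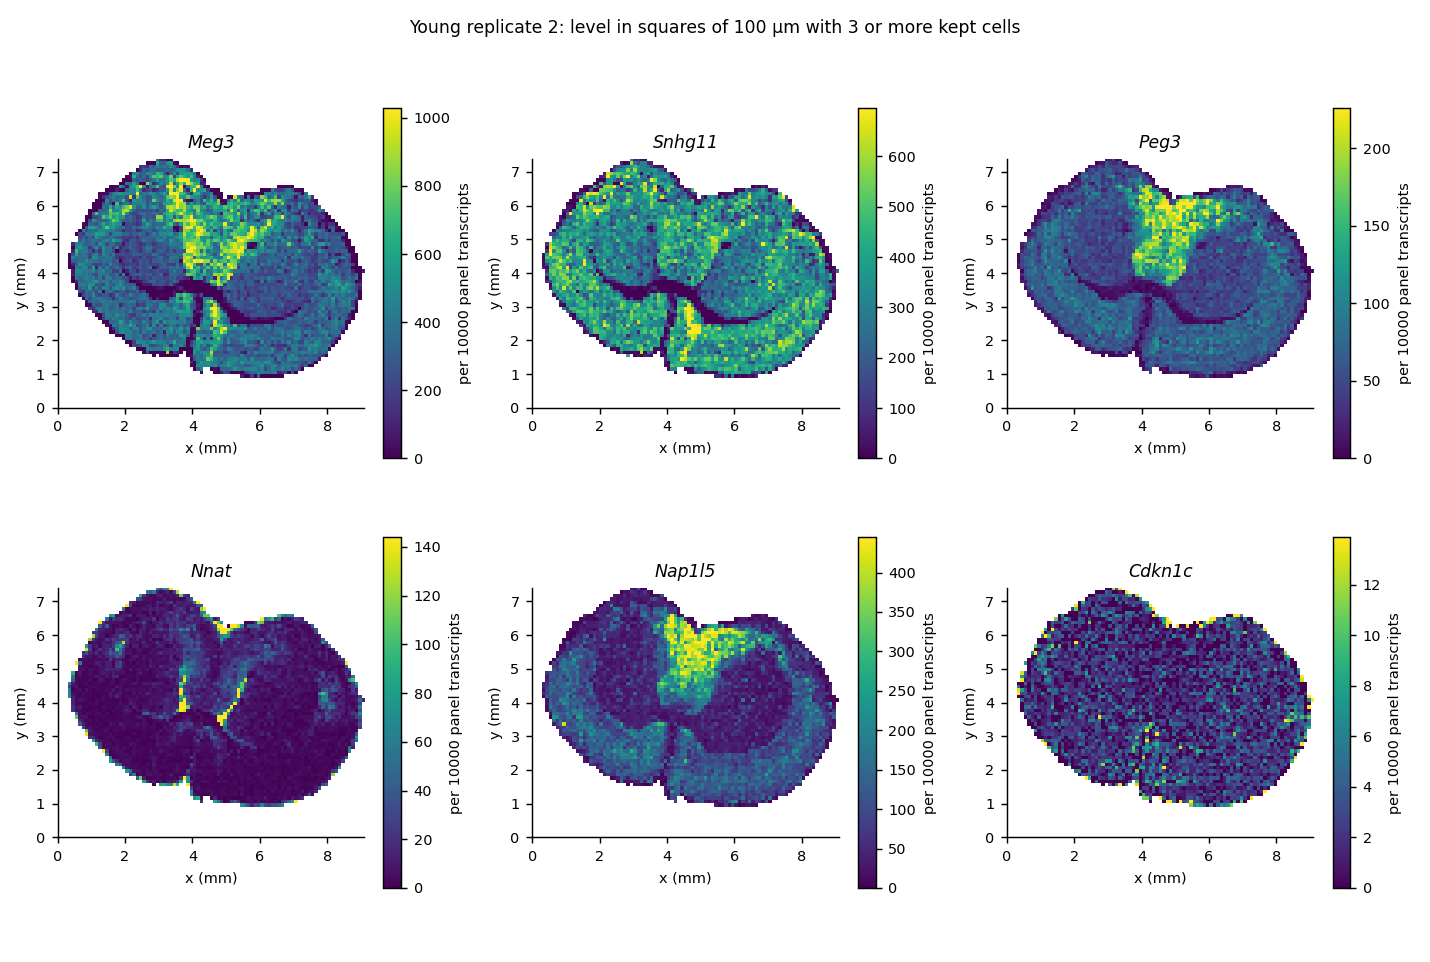
Level of the 6 genes (colour, transcripts per 10000 panel transcripts, each panel on its own scale and capped at its 99th percentile) over Young replicate 2, in squares of 100 µm that hold 3 or more kept cells, mixed cells included; axes are x and y in mm. Peg3 and Nap1l5 are high between both striata, Nnat is high along a thin line beside each striatum and at the edge of the section, Cdkn1c is high at the edge, and a dark band low in Meg3, Snhg11 and Peg3 borders the striata.

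Within the striatum, the position of a spiny neuron went with the level of 3 of the 6 genes. The outline was drawn where at least 40% of the cells within 150 µm were spiny neuron-like, and the middle of its dorsal-ventral extent parted dorsal from ventral. The sample labels give no orientation, so the axis was set perpendicular to the line between the centres of both striata. Its dorsal end was inferred as the one with more oligodendrocyte-like cells just outside the outline, 46.3% to 58.4% against 17.7% to 25.6% at the other end. The test was edgeR's quasi-likelihood fit of the section sums with the section as a block, adjusted by Benjamini-Hochberg over all genes tested. In spiny neuron-like cells 3 of 6 members were called, all lower in the dorsal part, where 32.1% of the 383 genes were called.

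Meg3 was at 713, 561, 872 and 652 in ventral and at 399, 319, 572 and 403 in dorsal spiny neuron-like cells of Young replicates 1 and 2 and Aged replicates 1 and 2. Each section was lower dorsally, although the ranges over sections overlapped, and Meg3 fell by 0.64 ± 0.05 (log2, SE; adjusted p = 9.54e-08, edgeR) from ventral to dorsal. Nnat was at 15.3, 11.5, 14.9 and 12.8 ventrally and 7.95, 6.22, 7.26 and 6.83 dorsally. Those ranges did not overlap, and Nnat fell by 0.84 ± 0.08 (adjusted p = 7.31e-07, edgeR). Nap1l5 was at 55.9, 50.8, 47.9 and 51.3 ventrally and 32.6, 32.9, 22.9 and 35.3 dorsally, without overlap, and fell by 0.65 ± 0.09 (adjusted p = 3.52e-05, edgeR).

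Blcap, whose intron holds Nnat, was at 79.1, 57.6, 65.9 and 64.9 ventrally and 43.7, 33.8, 37.5 and 38.8 dorsally. It fell by 0.70 ± 0.06 (adjusted p = 2.67e-07, edgeR), so host and nested gene were both lower dorsally. Snhg11 was at 432, 415, 560 and 393 ventrally and 391, 363, 512 and 388 dorsally, a difference of -0.02 with an approximate 95% interval from -0.12 to 0.08 (adjusted p = 0.754, edgeR). Intervals here and below take a normal quantile of the SE and are narrower than the F test of edgeR would give. Peg3 differed by -0.12 (interval -0.23 to -0.02, adjusted p = 0.103), and Cdkn1c by 0.15 (interval -0.07 to 0.37, adjusted p = 0.339), both short of the threshold in edgeR. Peg3 passed under 4 alternatives, at -0.16 with mixed cells kept (adjusted p = 0.0210), -0.19 in the outer parts alone (0.0496), -0.17 at a clustering resolution of 0.3 (0.0110) and -0.22 without TMM factors (3.59e-03), all by edgeR. Without TMM factors the share of higher calls among all called genes went from 48.0% to 29.8%. On the scale of cell volume that share was 36.7% in spiny neuron-like cells, and in astrocyte-like cells, with 3 calls in all, it went from 33.3% to 60% without TMM factors and to 50% by cell volume.

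Of the 11 pan-neuronal genes, which neurons of most kinds express (Stmn2, Tubb3, Eno2 and others), 0 were called higher and 2 lower dorsally, with a median of -0.05 beside 0.02 over all genes, and their summed level was 1538 to 1636 ventrally and 1311 to 1432 dorsally. Of the 3 other genes that are not protein coding, Dlx6os1, an antisense RNA of a forebrain interneuron locus, fell dorsally (-0.47, adjusted p = 6.09e-05, edgeR), and Gm16499 and Igkc were not called.

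**Figure D3:**
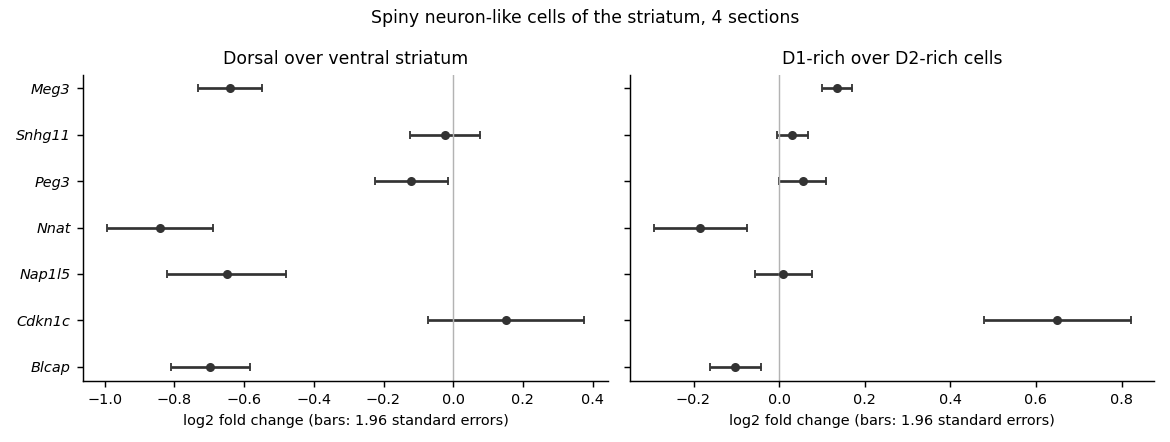
Log2 fold change of the 6 genes and Blcap in spiny neuron-like cells of the outlined striatum, dorsal over ventral on the left and D1-rich over D2-rich on the right. Points are edgeR estimates over 4 sections, and bars are approximate 95% intervals from a normal quantile of the SE. Meg3, Nnat, Nap1l5 and Blcap lie below 0 on the left and Cdkn1c is farthest above 0 on the right.

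The same axis was compared in glia of the outlined striatum. In astrocyte-like cells 0 of 5 members tested were called by edgeR, where 1.33% of all genes were called, 1 member (Snhg11) had an unadjusted p under 0.05 and DESeq2 called 0 members. Over all 225 genes tested, 33 had an unadjusted p under 0.05 in edgeR and DESeq2 called 5. All 5 passed once mixed cells were kept, lower dorsally, at -0.28 (Peg3) to -0.95 (Meg3), and Meg3, Nnat and Nap1l5 also passed lower with the outline drawn at 60% spiny neuron-like cells. Calls over all genes went from 3 to 61 with mixed cells kept and to 27 at the 60% outline. Snhg11 passed lower at a clustering resolution of 0.3 and without Aged replicate 2. In oligodendrocyte-like cells 1 of 6 was called, where 2.53% of all genes were called, and 4 members (Meg3, Snhg11, Peg3 and Cdkn1c) had an unadjusted p under 0.05. Of all 198 genes tested, 38 had an unadjusted p under 0.05 in edgeR. The called member was Meg3, at 36.9, 3.54, 167 and 79.8 ventrally and 17.9, 2.77, 36.0 and 16.1 dorsally, which fell by 1.75 ± 0.24 (adjusted p = 2.61e-03, edgeR). Without Aged replicate 1, the section with the highest values, it was -1.41 and no longer passed (adjusted p = 0.0714, edgeR). With mixed cells kept 5 of the 6 passed, all lower dorsally, at -0.78 (Meg3), -0.28 (Snhg11), -0.36 (Peg3), -0.99 (Nnat) and -0.47 (Nap1l5). Calls over all genes in this class then went from 5 to 95. Snhg11, at -1.28 and short of the threshold (adjusted p = 0.0554, edgeR), passed under 8 alternatives, and Peg3, at -0.87 (adjusted p = 0.0620, edgeR), under 4. The pan-neuronal genes summed to 218 to 456 ventrally and 203 to 299 dorsally in these cells, and their part in the Meg3 difference was not tested.

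Spiny neurons carry either D1 dopamine receptors, the direct pathway, or D2 receptors, the indirect pathway. Cells of the outlined striatum with at least 3 transcripts of Drd1 and with at least 3 times as many as of Drd2 were called D1-rich, and the reverse D2-rich, which gave 2192 to 3278 and 1752 to 2592 cells per section. Of the 6 members 3 were called, where 48.6% of the 381 genes tested were called.

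Cdkn1c, encoding the cell cycle inhibitor p57, was at 2.16, 2.32, 2.76 and 2.41 in D1-rich cells of Young replicates 1 and 2 and Aged replicates 1 and 2, and at 1.33, 1.53, 1.78 and 1.20 in D2-rich cells. The ranges did not overlap, and Cdkn1c rose by 0.65 ± 0.09 (log2, SE; adjusted p = 3.56e-07, edgeR) in D1-rich cells, a 1.57-fold difference. Among the other cell cycle inhibitors of the panel, Cdkn1a (p21) also rose, by 0.74 ± 0.07 (adjusted p = 4.62e-10, edgeR), and 2 of 3 of them were called higher and 0 lower.

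Meg3 was at 604, 458, 782 and 557 in D1-rich and 513, 391, 685 and 486 in D2-rich cells, higher in D1-rich cells of each section, and rose by 0.14 ± 0.02 (adjusted p = 2.72e-07, edgeR). The pan-neuronal genes moved with it, with 8 of 11 called higher and 1 lower and a median of 0.17 beside 0.01 over all genes. Nnat was at 11.4, 7.75, 9.62 and 8.36 in D1-rich and 10.8, 8.33, 11.9 and 9.31 in D2-rich cells, lower in 3 of 4 sections, and fell by 0.18 ± 0.06 (adjusted p = 7.44e-03, edgeR). The Nnat call was lost without TMM factors (-0.11, adjusted p = 0.0805), without Young replicate 2 (-0.19, adjusted p = 0.0637) and on the scale of cell volume (adjusted p = 0.981). Snhg11, Peg3 and Nap1l5 differed by 0.03 (approximate 95% interval -0.01 to 0.07), 0.06 (0.00 to 0.11) and 0.01 (-0.06 to 0.08), short of the threshold. The unadjusted p of Peg3 was 0.0581 (edgeR), although its approximate interval lay just above 0. Snhg11 and Peg3 passed with mixed cells kept (0.07 for both), without TMM factors (0.10 and 0.13) and by cell volume (0.22 and 0.24). Nap1l5 passed without TMM factors (0.08), by cell volume (0.19) and in cells with none of the other receptor (0.09). Without TMM factors the share of higher calls among all called genes went from 48.1% to 65.2%. On the scale of cell volume that share was 80.1% and the median over all genes 0.19, and differences in this comparison are relative to the panel total.

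Transcripts of a neuron can be assigned to a glial cell that touches it, so levels in glia were compared between cells whose centre lay within 15 µm of the nearest neuron-like centre (near) and over 30 µm away (far). Far cells were mostly outside the outlined striatum (1.05% to 8.39% within it, against 25.4% to 43.2% of near cells), so distance and region cannot be told apart here. The rule on mixed cells also removes near cells that carry neuronal markers, and values with mixed cells kept are given beside the main ones. On the scale of cell volume the median over all genes was 0.22 to 0.61 higher near neurons in the 4 classes, and the share of higher calls was 92.0% against 50.3% in oligodendrocyte-like, 67.9% against 47.3% in astrocyte-like, 86.7% against 55.1% in microglia-like and 76.8% against 46.8% in vascular-like cells. Without TMM factors it was 75.5% in oligodendrocyte-like cells.

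In oligodendrocyte-like cells 4 of 6 members were called, all higher near neurons, where 42.6% of all genes were called. Meg3 was at 70.7, 34.5, 122 and 61.9 near neurons and at 0.652, 0.974, 5.99 and 4.29 far from them, in Young replicates 1 and 2 and Aged replicates 1 and 2. The ranges did not overlap, and Meg3 rose by 4.46 ± 0.31 (adjusted p = 2e-09, edgeR), a 22.0-fold difference. Snhg11 was at 41.5, 30.5, 74.2 and 45.2 near and 2.51, 2.77, 6.996 and 4.15 far, and rose by 3.26 ± 0.16 (adjusted p = 5.23e-11, edgeR). Peg3 rose by 1.11 ± 0.13 (adjusted p = 1.75e-06) and Nap1l5 by 0.46 ± 0.11 (adjusted p = 1.95e-03), both higher near neurons in 4 of 4 sections in edgeR. At a clustering resolution of 0.3 Nap1l5 was at 0.17 and lost its call (adjusted p = 0.234, edgeR). Nnat (0.21, interval -0.13 to 0.55, adjusted p = 0.372) and Cdkn1c (-0.29, interval -0.70 to 0.13, adjusted p = 0.305) did not pass in edgeR. Nnat passed with mixed cells kept (0.29), without TMM factors (0.52) and by cell volume (0.77), and Cdkn1c passed lower with mixed cells kept (-0.26) and with limits of 10 and 40 µm (-1.02).

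Neuronal genes outside the list moved the same way. Of the 11 pan-neuronal genes 9 were called higher near neurons in oligodendrocyte-like cells, with a median of 1.59 beside -0.07 over all genes, and their summed level was 317 to 471 near and 103 to 120 far. Near cells were also shallower, with medians of 63 to 101 against 121 to 208 transcripts. With mixed cells kept, Meg3 differed by 1.84, from 81.1 to 109 far to 297 to 443 near. Snhg11 was then at 1.81 in place of 3.26, Peg3 at 1.14 and Nap1l5 at 0.67. The part of transcripts assigned from neurons was not tested.

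Most Meg3 transcripts of oligodendrocyte-like cells sat in few cells. The cells with at least 20 Meg3 transcripts numbered 11, 8, 36 and 24 in the 4 sections, 0.262% to 0.720% of the class, and held 64.0% to 74.6% of its Meg3. In astrocyte-like cells such cells held 16.7%, 11.7%, 43.2% and 35.8% of the Meg3. In spiny neuron-like cells 36.3% to 48.0% of the cells had at least 20 and held 78.5% to 88.1%. The Meg3 level averaged over oligodendrocyte-like cells therefore says little of a typical cell of that class.

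In astrocyte-like cells 5 of 6 members were called, where 58.2% of all genes were called. Snhg11 was at 6.84, 11.2, 19.2 and 18.6 near neurons and 1.85, 2.79, 7.99 and 4.54 far, and rose by 1.82 ± 0.16 (adjusted p = 2.78e-05, edgeR). Meg3 rose by 0.62 ± 0.12 (adjusted p = 1.83e-03), Peg3 by 0.57 ± 0.09 (9.70e-04) and Nap1l5 by 0.27 ± 0.09 (0.0262) in edgeR. Nap1l5 lost its call under 7 alternatives, which were DESeq2, totals without TMM factors, a clustering of resolution 0.3, the finer astrocyte-like clusters alone, and leaving out Young replicate 2, Aged replicate 1 or Aged replicate 2 (0.05 to 0.27). Of the pan-neuronal genes 6 of 11 were called higher and 0 lower. With mixed cells kept, Snhg11 was at 1.33, Meg3 at 0.95, Peg3 at 0.60 and Nap1l5 at 0.42.

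Nnat ran the other way in astrocyte-like cells. It was at 33.7, 38.95, 38.3 and 44.6 near neurons and 81.0, 117, 77.2 and 87.2 far, without overlap, and fell by 1.13 ± 0.09 (adjusted p = 2.19e-05, edgeR). The unnamed cluster rich in Nnat made up 9.81% to 28.6% of far and 6.52% to 11.1% of near astrocyte-like cells. In the finer astrocyte-like clusters alone, which leave that cluster out, Nnat was at 18.3, 16.4, 18.8 and 20.3 near and 13.7, 18.7, 16.4 and 14.5 far, a difference of 0.23 (adjusted p = 0.139, edgeR). Cdkn1c differed by -0.54 (interval -0.99 to -0.10, adjusted p = 0.0684, edgeR). With mixed cells kept, Nnat was at -0.94 and Cdkn1c at -0.25 in the whole astrocyte-like class.

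In vascular-like cells 6 of 6 members were called, where 75.2% of all genes were called. Nnat was at 9.91, 10.1, 8.96 and 9.58 near neurons and 71.1, 60.5, 40.4 and 55.1 far, and fell by 2.68 ± 0.11 (adjusted p = 2.2e-28, edgeR). Cdkn1c was at 4.79, 5.61, 4.10 and 3.82 near and 7.35, 7.43, 6.80 and 6.52 far, without overlap, and fell by 0.77 ± 0.16 (adjusted p = 2.95e-05, edgeR). By cell volume the Cdkn1c difference was -0.03 and lost its call (adjusted p = 0.877, edgeR). Fibroblast-like cells were 54.6% to 63.7% of far and 4.96% to 6.94% of near vascular-like cells. In endothelial-like cells alone Nnat still fell, by 0.80 (adjusted p = 9.90e-05, edgeR), whereas Cdkn1c was higher near neurons by 0.31 and did not pass (adjusted p = 0.198, edgeR). With mixed cells kept, Nnat was at -1.88 and Cdkn1c at -0.55 in the whole vascular-like class.

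Meg3, Snhg11, Peg3 and Nap1l5 were higher near neurons in vascular-like cells of each section. Meg3 was at 74.3, 71.1, 114 and 72.0 near and 23.2, 12.9, 21.9 and 22.3 far, and rose by 1.90 ± 0.11 (adjusted p = 6.44e-22, edgeR). Peg3 rose by 0.80, Nap1l5 by 0.48 and Snhg11 by 0.27 (adjusted p = 6.34e-09, 5.74e-05 and 0.0121, edgeR). The Snhg11 call was lost with limits of 10 and 40 µm (0.25, adjusted p = 0.115), without Aged replicate 1 (0.21, adjusted p = 0.0522) and without Young replicate 2 (0.24, adjusted p = 0.0706), all by edgeR. In endothelial-like cells alone Meg3 rose by 1.23, Snhg11 by 1.36 and Peg3 by 0.33, and Nap1l5 no longer passed at 0.21, nor with fibroblast-like cells left out at 0.36. Of the pan-neuronal genes 10 of 11 were called higher, from a summed level of 239 to 305 far to 434 to 565 near. With mixed cells kept, Meg3 was at 2.51, Snhg11 at 1.29, Peg3 at 0.997 and Nap1l5 at 0.59 in the whole vascular-like class.

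In microglia-like cells 0 of 5 members tested were called by edgeR, where 31.1% of the 222 genes tested were called, 1 member (Peg3) had an unadjusted p under 0.05 and DESeq2 called 0 members. Over all 222 genes, 88 had an unadjusted p under 0.05 in edgeR and DESeq2 called 47. Meg3 was at 24.3, 7.02, 41.3 and 22.0 near and 2.13, 13.5, 105 and 3.83 far, a spread over sections that covered both. With mixed cells kept Meg3 (1.39), Snhg11 (1.39), Peg3 (0.92) and Nap1l5 (0.37) were called higher near neurons, with Meg3 at 229 to 288 near and 87.6 to 136 far. Calls over all genes went from 69 to 189 with mixed cells kept and to 120 by cell volume. By cell volume the same 4 genes passed (0.55 to 0.86), Meg3 and Snhg11 also passed at a clustering resolution of 0.3 and without Aged replicate 1, and Meg3 without Young replicate 2. The pan-neuronal genes were called higher in 6 of 10 tested without mixed cells.

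**Figure D4:**
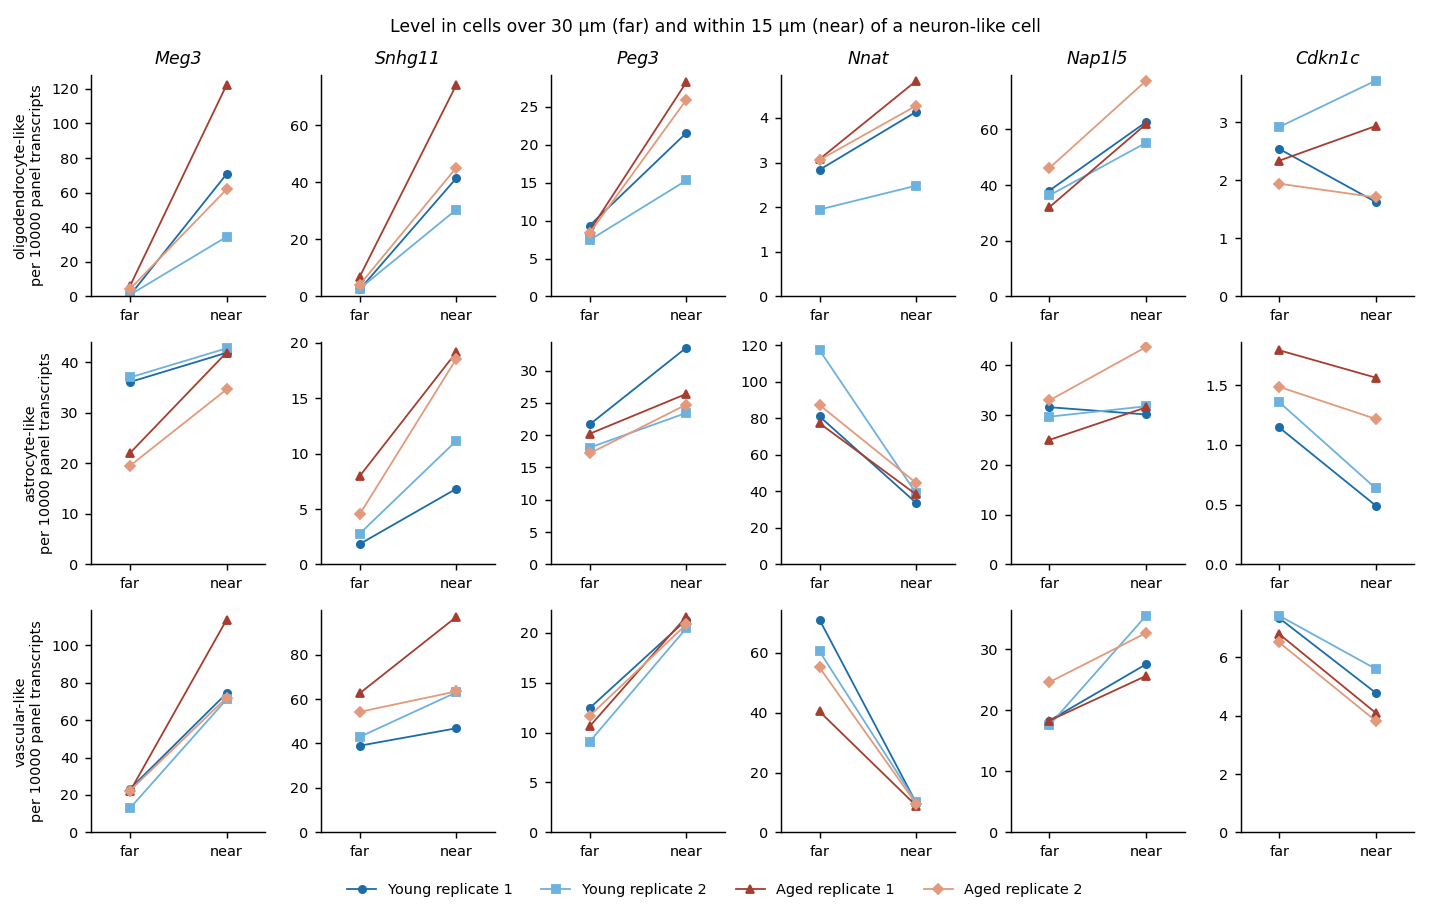
Level of the 6 genes (transcripts per 10000 panel transcripts, each panel on its own axis from 0) in oligodendrocyte-, astrocyte- and vascular-like cells over 30 µm (far) and within 15 µm (near) of a neuron-like cell, mixed cells left out. Each line is 1 section; Meg3 rises to the near side in all 3 classes, and Nnat falls in astrocyte- and vascular-like cells.

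The difference between 2 and 18 months was part of how the genes were chosen and is given without a test. The background shares by edgeR were 0% of 383 genes in spiny neuron-like cells (27 with an unadjusted p under 0.05, 0 by DESeq2), 0% of 383 in other neuron-like cells (9 unadjusted, 1 by DESeq2), 0.261% in vascular-like, 2.45% in OPC-like, 2.45% in microglia-like, 4.74% in oligodendrocyte-like and 4.81% in astrocyte-like cells. Of the members, 2 were called in microglia-like cells (Meg3 and Snhg11), 1 in astrocyte-like cells (Snhg11) and 0 in the other 5 classes by edgeR, from which nothing is read since the choice used them. In those 5 classes the members with an unadjusted p under 0.05 numbered 1 (spiny neuron-like), 0 (other neuron-like), 0 (OPC-like), 2 (oligodendrocyte-like) and 3 (vascular-like), and DESeq2 called 1, Snhg11 in oligodendrocyte-like cells. Over all genes, edgeR gave an unadjusted p under 0.05 for 60 of 326 in OPC-like, 82 of 380 in oligodendrocyte-like and 40 of 383 in vascular-like cells. DESeq2 called 17, 27 and 1 of all genes in these classes. In astrocyte-like cells 2 members were among its 23 calls, and in microglia-like cells 1 member was among its 10.

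In spiny neuron-like cells Meg3 went from 573 and 468 at 2 months to 746 and 596 at 18 months, a log2 difference of 0.38 ± 0.16 (SE), and these values did not overlap. Snhg11, at 419 and 400 against 569 and 414, differed by 0.28 ± 0.17 with Aged replicate 2 inside the young range. Peg3 (0.01 ± 0.13), Nnat (0.12 ± 0.19), Nap1l5 (-0.04 ± 0.15) and Cdkn1c (0.04 ± 0.27) differed by less than their error. In other neuron-like cells Meg3 differed by 0.34 ± 0.23 and Snhg11 by 0.28 ± 0.21, and both ages overlapped. Undivided, Meg3 was at 28.1 and 18.9 transcripts per spiny neuron-like cell at 2 months and at 21.4 and 21.5 at 18 months, in sections of unlike depth. On the scale of cell volume the median over all genes lay 0.28 to 0.52 lower in aged sections, depending on the class, so directions here are relative to the total of the panel. By cell volume Meg3 in both neuronal classes together differed by -0.13 and Snhg11 by -0.22, where levels per panel transcripts gave 0.35 and 0.27. These moves were not tested. The share of higher calls among all called genes went, on the scale of cell volume, from 25% to 0% in OPC-like, from 27.8% to 2.86% in astrocyte-like, from 75% to 57.1% in microglia-like and from 44.4% to 5.88% in oligodendrocyte-like cells. Without TMM factors it was 69.6% in OPC-like and 97.4% in microglia-like cells, and with the members left out of the totals 52.9% in microglia-like and 57.6% in oligodendrocyte-like cells.

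With mixed cells left out, the larger age differences were in glia. The share of each gene's transcripts set aside as mixed was lowest in Aged replicate 1, and its part in these differences was not tested. In microglia-like cells Meg3 differed by 1.64 ± 0.34 and Snhg11 by 1.70 ± 0.28, and Peg3 by 0.88 ± 0.27, with Aged replicate 1 highest for each. Cells with at least 20 Meg3 transcripts numbered 2 and 0 at 2 months, against 6 and 3 at 18 months, among microglia-like cells, and they held 57.2% and 51.4% of the Meg3 in the aged sections. The pan-neuronal genes summed to 235 and 243 at 2 months, against 429 and 339 at 18 months, in the same cells, and their part in the difference was not tested. Once mixed cells were kept, Meg3 was at 227 and 191 at 2 months against 231 and 242 at 18 months, and the differences were 0.17 (Meg3), 0.09 (Snhg11) and -0.03 (Peg3).

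Oligodendrocyte-like cells showed the same pair, with Meg3 at 0.89 ± 0.28 and Snhg11 at 0.72 ± 0.23, while the pan-neuronal sum was 167 and 174 at 2 months and 223 and 224 at 18 months. These differences were 0.42 and 0.36 with mixed cells kept. In astrocyte-like cells Snhg11 was at 4.89 and 6.52 at 2 months, against 13.5 and 11.7 at 18 months (1.16 ± 0.21), and Meg3 at 41.9 and 42.2 against 30.9 and 27.8 (-0.51 ± 0.15). The 5 neuroblast genes of the panel (Dcx, Sox11, Sox4, Dlx6os1, Ccnd2) were all called lower with age in this class, from a sum of 196 and 259 to 89.0 and 100.4. In the finer astrocyte-like clusters alone Meg3 differed by 0.67 in the other direction, at 5.83 and 5.16 against 12.1 and 5.73, and with mixed cells kept by 0.54, where Snhg11 differed by 0.89. In vascular-like cells Nnat differed by -0.41 ± 0.19 and Snhg11 by 0.51 ± 0.18, and in OPC-like cells all 6 lay between -0.55 (Cdkn1c) and 0.48 (Meg3). Once mixed cells were kept, Nnat was at -0.10 and Snhg11 at 0.40 in vascular-like cells, and in OPC-like cells Cdkn1c was at -0.08 and Meg3 at 0.40.

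**Figure D5:**
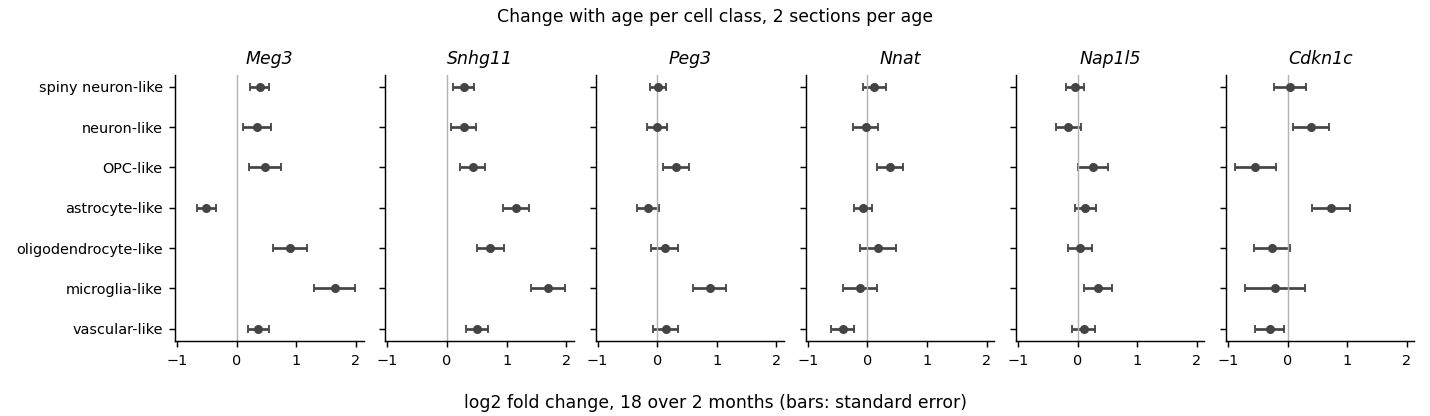
Log2 fold change of the 6 genes, 18 over 2 months, in the 7 cell classes with mixed cells left out. Points are edgeR estimates from 2 sections per age and bars the standard error, with no test; Meg3 and Snhg11 lie at 1.64 and 1.70 in microglia-like cells.

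Neurons were then set against glia within each section, with both neuronal classes and with the astrocyte-, oligodendrocyte-, OPC- and microglia-like classes together. Meg3 was at 645, 505, 815 and 649 in neurons and 52.7, 36.5, 51.6 and 37.3 in glia, and the log2 ratio of neurons to glia was 0.35 higher in aged than in young sections, from 3.61 and 3.79 to 3.98 and 4.12. The difference was -0.06 once mixed cells were kept. The same difference of ratios was -0.06 for Snhg11, 0.08 for Peg3, 0.26 for Nnat, -0.20 for Nap1l5 and 0.19 for Cdkn1c. With 2 sections per age an exact permutation test cannot give a p below 0.333, and leaving out 1 section turned the sign for Snhg11, Peg3 and Nnat. Nnat was the member with more in glia than in neurons in all 4 sections, at 28.6, 32.8, 25.1 and 26.7 in glia and 10.9, 8.50, 9.97 and 9.62 in neurons. Among the glial classes this held for the means of astrocyte-like (63.9) and OPC-like cells (23.8), whereas oligodendrocyte-like (3.46) and microglia-like cells (6.86) lay below both neuronal classes (8.70 and 10.8).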

How the data were processed

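MERFISH, which images single RNA molecules, was read in 4 coronal sections, and the deposited tables hold whole-number counts of transcripts per cell and gene, made by the authors by decoding images and assigning molecules to segmented cells. Each cell's volume was deposited as a signal in µm³, and the authors' table of means was not used here. Cells with at least 10 detected genes and a volume of at least 50 µm³ were kept and hold 36035355, 31172121, 18765491 and 29004185 transcripts in Young replicates 1 and 2 and Aged replicates 1 and 2. No doublet caller was run, and cells with markers of 2 kinds were set aside as mixed instead. The 6 genes were left out of 15 principal components and a Louvain clustering (igraph 0.11.9, 20 neighbours, resolution 0.08, and 1.0 for finer classes), and clusters were named from marker lists. Raw counts were summed per section and class and tested by edgeR 4.0.16 (R 4.3.3) quasi-likelihood fits with TMM factors, filterByExpr and, for contrasts within a section, the section as a block; DESeq2 1.42.0 was an alternative. Sections are the replicates. On simulated counts for these comparisons the fits recovered 64.3% (age, neuron-like cells, 383 genes), 90.8% (dorsal, spiny neuron-like, 383), 75.4% (near neurons, astrocyte-like, 325) and 92.3% (D1-rich, 381) of genes changed 1.5-fold. In the same order 1 of 183, 7 of 183, 5 of 151 and 6 of 181 unchanged genes were called. Each simulation changed 200 genes before the filter and used a fixed dispersion, so these shares are not the power of the tests on the real counts. Members and lists were chosen with earlier results of these data known. Named are the 6 genes, Blcap, the 3 genes most like each member, and the gene lists. Replicate numbers were not taken to pair sections of different ages. Alternatives changed the tool, scaling, filter, clustering, mixed cells, zones and sections.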

Additional observations from a re-analysis of the deposited data

Results flagged for a closer look

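The Nnat difference between cells near and far from neurons had opposite signs in different classes. In oligodendrocyte-like cells it was 0.21 (log2), higher near neurons in all 4 sections, but it did not pass (adjusted p = 0.372, edgeR) and was -0.05 at a clustering resolution of 0.3. In astrocyte-like cells it was -1.13 and in vascular-like cells -2.68, lower near neurons in all 4 sections, though in the finer astrocyte-like clusters alone it was 0.23 and did not pass (adjusted p = 0.139, edgeR). The difference between the classes was not tested.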

How the results depend on the processing

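Of 579 tested values of the 6 genes under an alternative, 485 kept direction and side of the threshold, 18 lost their call, 55 gained one and 21 reversed, and of 285 that passed at first 264 stayed so. The finer, endothelial-like and fibroblast-like subsets and the crossed replicate block were chosen after seeing the data. The cause of each move below was not tested.

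Counts of genes called moved as follows, first those with age. In OPC-like cells 8 became 17 (DESeq2), 33 (cell volume), 5 (mixed cells kept), 21 (no filter), 23 (resolution 0.3) and 23 (totals without TMM). In astrocyte-like cells 18 became 35 (cell volume), 0 (finer clusters alone), 10 (members out of totals) and 8 (mixed cells kept). In microglia-like cells 8 became 17 (members out of totals), 5 (mixed cells kept), 18 (no filter), 2 (resolution 0.3) and 38 (totals without TMM). In oligodendrocyte-like cells 18 became 34 (cell volume), 33 (members out of totals), 7 (mixed cells kept) and 41 (resolution 0.3). In vascular-like cells 1 became 6 (cell volume) and 0 with mixed cells kept, resolution 0.3 or without TMM. In neuron-like cells 0 became 1 (DESeq2), and in spiny neuron-like cells 1 (cell volume).

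With the replicate number as a block (replicate block) the counts with age were 15 in OPC-like, 0 in microglia-like, 0 in oligodendrocyte-like and 0 in vascular-like cells. To check the numbers as pairs, each gene's log2 level in a section was set against the mean of its age. These deviations, not the levels, correlated at -0.43 to -0.039 between same-numbered sections over the 7 classes. Crosswise pairs give the same values with the opposite sign by construction. The correlations were not above 0 in any class, so the numbers were not taken as pairs. Pairing them crosswise gave 29 in OPC-like, 10 in astrocyte-like, 1 in microglia-like, 34 in oligodendrocyte-like and 0 in vascular-like cells.

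Dorsal against ventral, astrocyte-like calls went from 3 to 27 (60% outline), 5 (DESeq2), 61 (mixed cells kept), 5 (no filter), 37 (outer parts alone), 34 (resolution 0.3) and 5 (totals without TMM). Oligodendrocyte-like calls went from 5 to 10 (60% outline), 3 (DESeq2), 95 (mixed cells kept), 11 (no filter), 11 (outer parts alone) and 13 (resolution 0.3). Near neurons, microglia-like calls went from 69 to 120 (cell volume), 189 (mixed cells kept) and 42 (limits of 10 and 40 µm), and oligodendrocyte-like calls from 147 to 281 with mixed cells kept. The Meg3 change with age of neurons minus glia went from 0.35 to -0.0566 with mixed cells kept.

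Signs turned as follows (log2). Near neurons, Nnat was 0.23 in the finer astrocyte-like clusters, 0.13 in microglia-like cells by cell volume and -0.0504 in oligodendrocyte-like cells at resolution 0.3. Nap1l5 was -0.16 in microglia-like cells at resolution 0.3, and Cdkn1c was 0.26 (cell volume) and 0.0143 (totals without TMM) in oligodendrocyte-like cells. Cdkn1c was 0.31 in endothelial-like cells alone and 0.26 with fibroblast-like cells left out. Dorsally, Nnat was 0.26 in astrocyte-like cells at resolution 0.3, Nap1l5 0.0239 in oligodendrocyte-like cells with no filter and Snhg11 0.0356 in spiny neuron-like cells at the 60% outline.

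Leaving out 1 section at a time gave these ranges of calls with age: OPC-like 3 to 22, astrocyte-like 0 to 25, microglia-like 0 to 38, neuron-like 0 to 0, oligodendrocyte-like 0 to 24, spiny neuron-like 0 to 1 and vascular-like 0 to 2. Dorsal against ventral it gave 0 to 10 (astrocyte-like), 0 to 12 (oligodendrocyte-like) and 94 to 137 (spiny neuron-like), and 147 to 178 for D1-rich cells. Near neurons it gave 161 to 176 (astrocyte-like), 53 to 65 (microglia-like), 113 to 154 (oligodendrocyte-like) and 264 to 279 (vascular-like). The change with age of neurons minus glia ranged from 0.26 to 0.44 (Meg3), -0.18 to 0.07 (Snhg11), -0.04 to 0.20 (Peg3), -0.02 to 0.55 (Nnat), -0.31 to -0.08 (Nap1l5) and 0.06 to 0.33 (Cdkn1c). It also turned the sign of differences that had not passed. These ranged from -0.0167 (without Young replicate 1) to 0.033 for Nap1l5 in D1-rich cells, also -0.0144 without Aged replicate 1 and -0.0062 without Young replicate 2. For dorsal Peg3 in astrocyte-like cells the range was -0.0737 to 0.0502 (without Young replicate 2). For Snhg11 in dorsal spiny neuron-like cells it was -0.0693 to 0.0136 and for Nap1l5 in dorsal oligodendrocyte-like cells -0.16 to 0.12, both highest without Aged replicate 1. In microglia-like cells near neurons Meg3 ranged from -0.42 (without Young replicate 1) to 1.37 (without Aged replicate 1), with -0.22 without Aged replicate 2. Snhg11 ranged there from -0.10 (without Young replicate 1) to 1.60 (without Aged replicate 1), and Nnat from -0.53 (without Young replicate 1) to 0.0123 (without Young replicate 2). Depth limits microglia-like cells near and far from neurons, where 222 of 383 genes were tested.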
